A study of Mus musculus with 8 samples.

Results

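Secreted and cornified envelope genes of stratified epithelium were examined in lumbar intervertebral discs of mice with proteoglycan-induced spondylitis, an autoimmune inflammation of the spine. The set has 10 genes (Slurp1, Sbsn, Krtdap, Dmkn, Ly6d, Lor, Flg, Ivl, Sprr1a and Dsp) out of 18193 genes on the array that at least 1 probe set names alone. They were found by symbol, through 17 of 34945 such probe sets, and were chosen with the difference between immunized and naive mice already known. Total RNA came from 5 samples of immunized and 3 samples of naive mice, all female BALB/c. Immunization was with cartilage proteoglycan, 100 µg of protein per dose, given with 2 mg of an adjuvant (DDA, dimethyldioctadecylammonium bromide) on each of days 0, 21 and 42. The naive mice were of the same age. Each sample was RNA of 6 pooled discs (lumbar levels 1 to 6), so it mixes nucleus pulposus, annulus fibrosus, endplate and any adjoining tissue. The titles call the replicates biological, but the descriptions of immunized replicate 1 and naive replicate 3 each join 2 sample numbers.

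Stratified epithelia such as epidermis end in cornified cells, in which the plasma membrane is replaced by an envelope of crosslinked protein. Involucrin (Ivl), the small proline-rich protein Sprr1a and loricrin (Lor) are transglutaminase substrates of that envelope, filaggrin (Flg) bundles keratin filaments beneath it, and desmoplakin (Dsp) ties keratin filaments to desmosomes. Suprabasin (Sbsn), dermokine (Dmkn) and keratinocyte differentiation-associated protein (Krtdap) are secreted proteins of the differentiating layers whose genes lie side by side. Slurp1 is a secreted and Ly6d a membrane-anchored protein of the Ly6/uPAR family, and Slurp1 modulates nicotinic acetylcholine receptors. Some of these genes also act outside skin: desmosomes occur in many tissues, Ly6d is also carried by early B lineage cells, and Sprr1a is also induced in injured neurons. The nucleus pulposus descends from the notochord, and its cells contain keratins.

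The 10 genes split into a group of 4 and a group of 6. Slurp1, Sbsn, Dmkn and Dsp were lower in discs of immunized mice, by 2.41 to 4.98-fold, while Krtdap, Ly6d, Lor, Flg, Ivl and Sprr1a differed by no more than 0.15 on the log2 scale in either direction. Values are given on a log2 scale on which each probe set has its median over the 8 arrays at 0, so a difference of 1 is a doubling. Of the 10 genes, 3 (Slurp1, Sbsn and Dmkn) were among those called lower in limma's test over all genes (Benjamini-Hochberg adjusted p under 0.05), and 0 were called higher (4 had an unadjusted p under 0.05, all lower). Over all genes 4.68% were called lower and 4.46% higher. At an unadjusted p under 0.05 limma gave 3311 lower and 2346 higher of 18193 genes, the background for every unadjusted count below. In the same 3 genes all immunized samples lay below all naive samples, and in 0 all lay above. Over all genes the groups were apart in 23.4%, with the immunized samples below in 14% and above in 9.39%. Nothing is read from these counts, because the genes were chosen on this contrast. The call for Slurp1 stood in 4 of 8 fits that each left out 1 sample, that for Dmkn in 2 and that for Sbsn in 1, and all 3 were lost without any one of the naive samples or without immunized replicate 1. In pooled discs fewer cells of a type and less RNA per cell cannot be told apart.

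**Figure D1:**
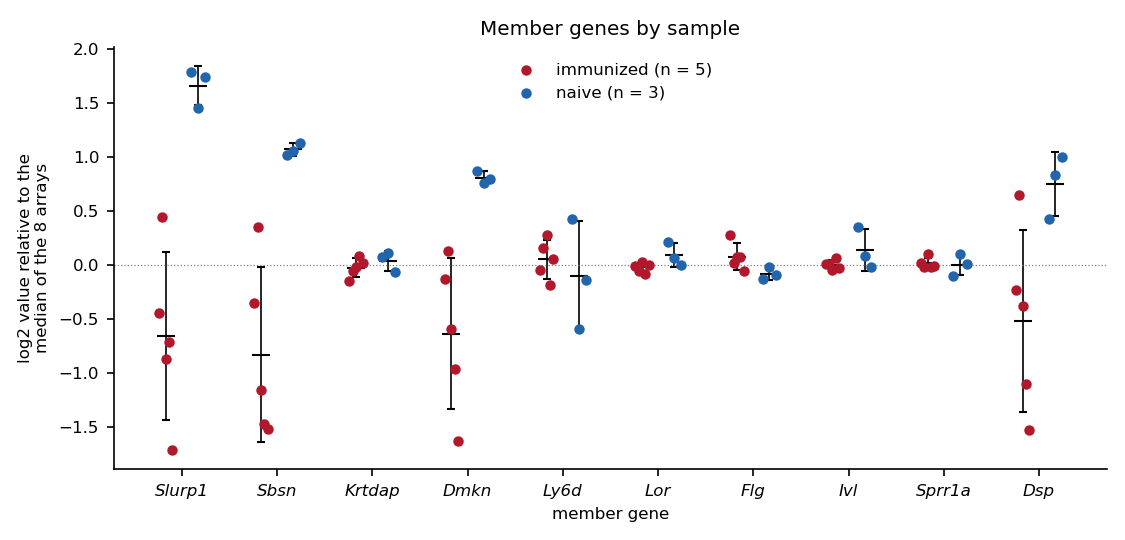
Log2 value relative to the median of the 8 arrays (y axis) for each of the 10 genes (x axis), with 1 point per sample, immunized in red and naive in blue, and the mean ± SD in black. Slurp1, Sbsn and Dmkn have all 5 immunized points below the 3 naive points, whereas the points of the other genes overlap.

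Among the secreted proteins, Slurp1 had values of -0.44, 0.44, -0.87, -0.71 and -1.71 in immunized replicates 1 to 5, against 1.78, 1.45 and 1.74 in naive replicates 1 to 3. The naive samples were close together and the immunized samples spread widely, with replicate 2 nearest to the naive values and replicate 5 farthest. The difference was -2.32 ± 0.39 (limma SE, 5 against 3 samples), a level 4.98-fold lower. Sbsn had -0.35, 0.35, -1.16, -1.47 and -1.52 in immunized replicates 1 to 5, against 1.02, 1.05 and 1.13 in naive replicates 1 to 3. Its difference was -1.89 ± 0.40, and its 3 probe sets gave -1.88, -1.88 and -1.91. Dmkn had -0.13, 0.13, -0.59, -0.96 and -1.63 in immunized replicates 1 to 5, against 0.87, 0.76 and 0.79 in naive replicates 1 to 3, a difference of -1.44 ± 0.35. In each of these genes immunized replicate 2 was the highest of its group and replicate 5 the lowest.

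Krtdap, the third secreted protein gene of that neighbourhood, behaved differently. It lay between -0.15 and 0.08 in the immunized samples and between -0.07 and 0.11 in the naive samples, a difference of -0.06 ± 0.08. Its single probe set had an array below 4 on the log2 scale of the original signal, a coarse level that can still be read from the spacing of the printed numbers. The probe sets of Sbsn and Dmkn were at 8 or more in every array. The single probe sets of Slurp1 and Ly6d had their lowest array from 4 to 8. At a signal as low as that of Krtdap a change may not be measurable, so the small difference does not show that the transcript is equally abundant in both groups.

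Dsp, the plaque protein of desmosomes, followed the first pattern. Averaged over its 3 probe sets it had -0.23, 0.65, -0.38, -1.10 and -1.53 in immunized replicates 1 to 5, against 0.42, 0.83 and 1.00 in naive replicates 1 to 3. Immunized replicate 2 lay among the naive samples, and the difference was -1.27 ± 0.43 (not called over all genes). The probe sets did not read alike. The pair at 8 or more in every array gave -1.36 and -1.34, and in both of them all immunized samples lay below all naive samples. The remaining probe set, whose lowest array lay from 4 to 8, gave -1.10 ± 0.61, with naive replicate 1 at -0.24 and immunized replicate 2 at 1.28.

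The structural envelope genes differed little when their probe sets were averaged, but some probe sets disagreed. Lor lay between -0.08 and 0.03 in immunized samples and between 0.00 and 0.21 in naive samples, a difference of -0.11 ± 0.07. Ivl differed by -0.14 ± 0.09, Sprr1a by 0.01 ± 0.07 and Flg by 0.15 ± 0.09. Naive replicate 1 was the highest sample for both Lor (0.21) and Ivl (0.35). Within Lor the probe sets disagreed, at 0.02 ± 0.12, 0.12 ± 0.12 and -0.48 ± 0.17, and without the probe set ending in _s_at, which gave the last value, the gene differed by 0.07. In that probe set all immunized samples (-0.43 to 0.01) lay below all naive samples (0.05 to 0.74). The probe sets of Ivl gave -0.28 ± 0.14, with naive replicate 1 at 0.67, and -0.01 ± 0.07. Probe sets of Lor, Ivl and Sprr1a had their lowest array from 4 to 8, and that of Flg below 4, where a change may not be measurable. The class from 4 to 8 does not by itself show that a transcript was detected.

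Ly6d ranged from -0.19 to 0.28 in immunized samples and from -0.59 to 0.42 in naive samples, a difference of 0.15 ± 0.21. The naive samples alone spanned 1.01, with replicate 1 at 0.42 and replicate 2 at -0.59. Markers of the B lineage, which also carries Ly6d, had the same sample order as Ly6d among the naive samples but not among the immunized: the mean of 12 measured markers was 0.53 in naive replicate 1, against -0.19 and -0.01 in naive replicates 2 and 3. In the immunized samples that mean lay between -0.22 and 0.13, and it was lowest in replicate 2, where Ly6d was second highest (0.16). Single markers also differed, with Ms4a1 at -0.54 in naive replicate 1. None of these markers passed in limma (unadjusted p under 0.05 in 2, both lower), and 8 of the 12 had a probe set at 8 or more in every array. The part of B lineage cells in the Ly6d values was not tested.

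The genes of the lower group also varied together among samples of the same group. This is not separate support for the group of 4, which was formed by the difference between immunized and naive samples. In each of the 4 genes immunized replicate 2 lay nearest to the naive values, so the spread runs along that same difference. No share over all genes is given for this measure, and many other genes resembled Slurp1 (next paragraph). With group means subtracted, Pearson correlations over the 8 samples were 0.87 to 0.92 for the 6 pairs among Slurp1, Sbsn, Dmkn and Dsp. Between these 4 genes and the other 6 they ranged from -0.61 to 0.50, and among the other 6 from -0.71 to 0.72. These coefficients describe 8 arrays that share RNA and tissue composition and rest mainly on the spread of the 5 immunized samples. The within-group SD was 0.64 for Slurp1, 0.66 for Sbsn, 0.57 for Dmkn and 0.71 for Dsp, against a median of 0.15 over all genes. It was 0.07 to 0.12 for Krtdap, Lor, Flg, Ivl and Sprr1a, which leaves little variation to correlate, and 0.33 for Ly6d.

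**Figure D2:**
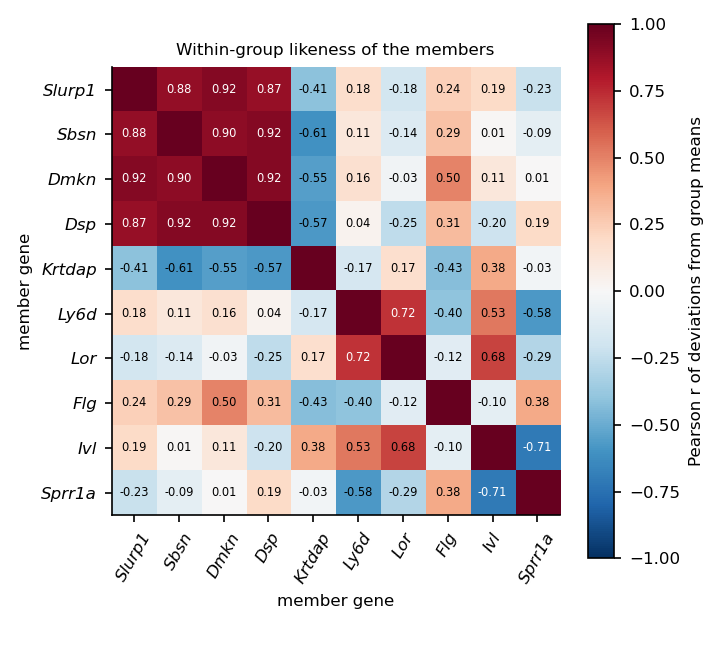
Pearson correlation of deviations from the group means over the 8 samples for each pair of the 10 genes (both axes), from -1 in blue to 1 in red. Slurp1, Sbsn, Dmkn and Dsp form a block with correlations of 0.87 to 0.92.

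On the first principal component of all genes (52.2% of the variance), immunized replicate 2 (-5.77) was nearest to the naive samples (-32.2 to -28.1), as in Slurp1, Sbsn, Dmkn and Dsp. The other immunized samples were in another order there than in these genes: replicate 4 was at 14.4, replicate 1 at 21.3, replicate 5 at 30 and replicate 3 at 32.2. Among 3140 genes with a range of at least 1 over the 8 samples, 316 (10.1%) had a correlation with Slurp1 of 0.9 or more. The 8 genes most like Slurp1 were Krt19 (r = 0.996), Hhipl2 (0.995), Ccdc3 (0.992), Rarg (0.992), Ptprf (0.991), Mgarp (0.991), Wscd2 (0.989) and Rell1 (0.989). Krt19 encodes a keratin of simple epithelia and of the nucleus pulposus, Rarg a retinoic acid receptor and Ptprf a receptor tyrosine phosphatase. With group means subtracted their correlations with Slurp1 were 0.95 to 0.99, which their selection over the same samples largely fixes. Dmkn had 0.968, Sbsn 0.966 and Dsp 0.908 on the first measure, which gave them ranks 51, 59 and 292 in likeness.

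The wider epidermal barrier was read from 8 lists with 140 measured genes that are not in the set. With limma, 9 of them fell and 3 rose in immunized discs, and their median difference was -0.08, against -0.035 over all genes. The share called, 8.57%, was close to the 9.14% called over all genes. At an unadjusted p under 0.05 limma gave 29 lower and 8 higher of the 140, against 3311 lower and 2346 higher of all 18193 genes. The 9 that fell were Dsc3, Dsg2, Krt80, Krt1, Alox12b, Trp63, Evpl, Lelp1 and Gpihbp1.

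Of 15 measured genes of desmosomes and epithelial junctions, 2 fell and 0 rose (unadjusted, 4 lower and 1 higher; median -0.18). Desmocollin 3 (Dsc3), an adhesion molecule of the desmosome, had -0.21, 0.12, -0.17, -0.23 and -0.18 in immunized replicates 1 to 5, against 0.67, 0.85 and 1.03 in naive replicates 1 to 3. The groups did not overlap, and Dsc3 fell by 0.98 ± 0.11 (adjusted p = 0.00811). Desmoglein 2 (Dsg2), its partner in adhesion, differed by -0.96 ± 0.22 (adjusted p = 0.0367). Plakophilin 1 (Pkp1), which binds desmoplakin in the plaque, differed by -1.23 ± 0.40 and did not pass, immunized replicate 2 (0.69) lying among the naive samples. Jup, another plaque protein, differed by -0.37 ± 0.13 and did not pass. The epidermal desmosomal cadherins Dsg1a (-0.06 ± 0.06), Dsg1b (-0.07 ± 0.09) and Dsc1 (-0.03 ± 0.08) had probe sets with an array below 4 and did not pass.

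Of 15 measured keratins of stratified epithelium, 2 fell and 0 rose in limma (6 lower and 0 higher, unadjusted; median -0.16). Krt80, a keratin of the differentiating layers, averaged -0.50 in immunized and 0.92 in naive samples, a difference of -1.42 ± 0.25 (adjusted p = 0.0208). Krt1, a keratin of the suprabasal epidermis, fell by 0.37 ± 0.09 (adjusted p = 0.0444). Its partner Krt10 (-0.37 ± 0.14) and the basal layer keratins Krt5 (-0.15 ± 0.09) and Krt14 (-0.19 ± 0.08) did not pass.

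Of 16 genes of barrier lipid synthesis 1 fell and 0 rose (unadjusted, 2 lower and 0 higher). Alox12b, a lipoxygenase needed for the lipid envelope of cornified cells, had -0.57, 0.52, -0.52, -1.24 and -0.94 in immunized replicates 1 to 5, against 1.33, 0.75 and 1.27 in naive replicates 1 to 3. All immunized samples were below all naive samples, and the difference was -1.67 ± 0.35 (adjusted p = 0.0288). Aloxe3, which acts on the product of Alox12b, did not pass, at -0.39 ± 0.12 (adjusted p = 0.0736). Among 15 epidermal transcription factors Trp63, which encodes the p63 regulator of stratified epithelium, fell by 0.42 ± 0.11 (adjusted p = 0.0495), and the others did not pass. At an unadjusted p under 0.05 limma gave 5 lower and 1 higher of the 15.

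**Figure D3:**
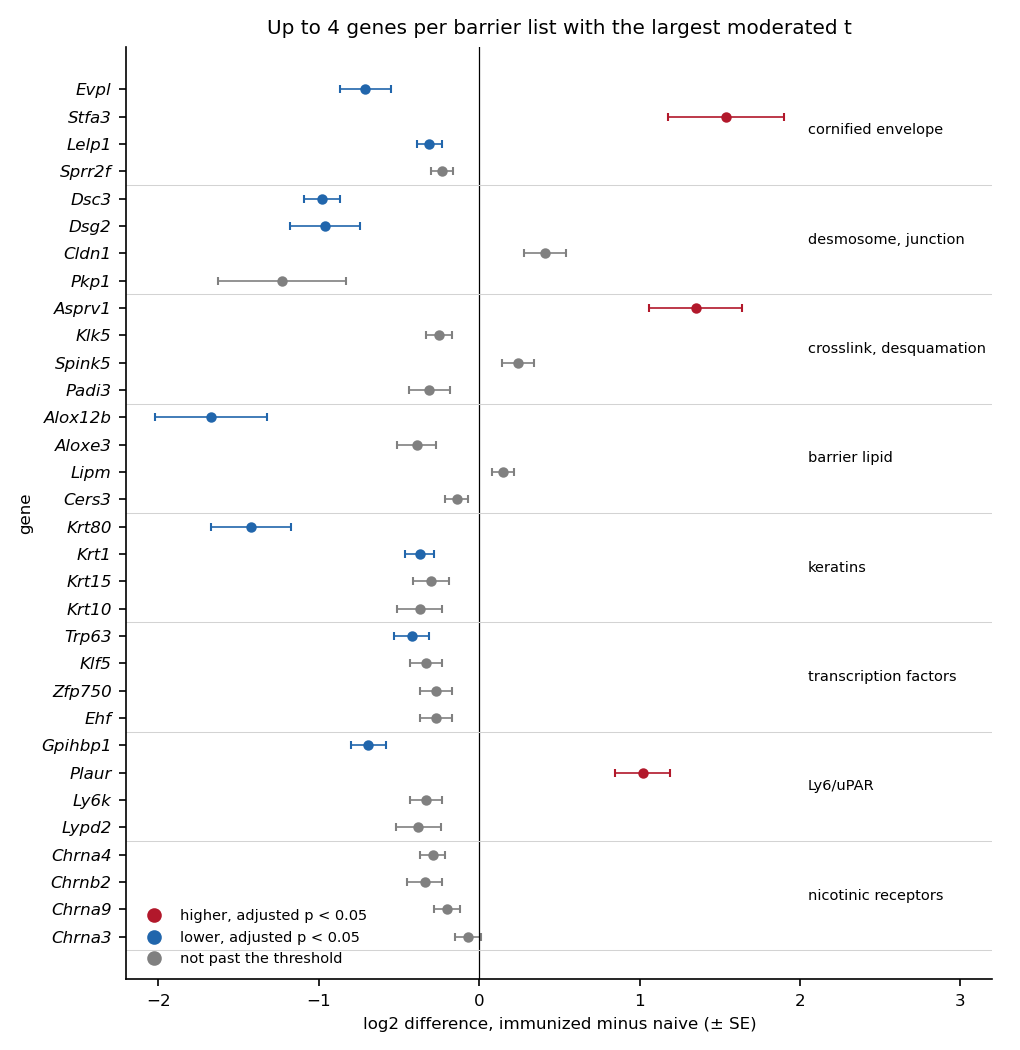
Log2 difference of immunized minus naive samples (x axis, points with SE) for the 4 genes with the largest moderated t in each of the 8 barrier lists (y axis, list named at right). Alox12b, Krt80, Dsc3 and Dsg2 show the larger falls that passed the test in blue, Stfa3, Asprv1 and Plaur the rises in red, and grey points did not pass.

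The cornified envelope list held 36 measured genes besides those of the set, of which 2 fell and 1 rose (unadjusted, 4 lower and 3 higher, median -0.04). It joins genes of the epidermal differentiation complex on mouse chromosome 3 with genes outside it, such as Evpl and Stfa3. The gene that rose was Stfa3, a stefin that inhibits cysteine proteases and has near-identical copies, so its signal may be shared with them (1.54 ± 0.36, adjusted p = 0.0368). Envoplakin (Evpl), a relative of desmoplakin in the envelope scaffold, averaged -0.28 in immunized and 0.43 in naive samples and fell by 0.71 ± 0.16 (adjusted p = 0.0348). Lelp1 fell by 0.31 ± 0.08 (adjusted p = 0.0494). None of the 36 genes had a probe set at 8 or more in every array, and for 13 all probe sets had an array below 4. Read by position instead, a choice made after the values were seen, the complex from S100a11 to S100a1 held 43 measured genes other than those of the set. Of these, Lelp1 fell and the calprotectin subunit S100a9 (0.40, adjusted p = 0.0361), a neutrophil protein, rose.

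Besides Stfa3, the barrier genes that rose were Asprv1 and Plaur. Asprv1, the protease that processes filaggrin, averaged 0.40 in immunized and -0.96 in naive samples and rose by 1.35 ± 0.29 (adjusted p = 0.0301), within a list of 17 crosslinking and desquamation genes of which 1 rose and 0 fell (2 higher and 2 lower, unadjusted). Of 10 neutrophil markers, a list added after the values were seen, 3 rose (Cxcr2, S100a9 and Mmp8; 9 higher and 0 lower, unadjusted), and all but Cxcr2 had a probe set at 8 or more in every array. Their mean lay between -0.14 and 0.59 in immunized samples and between -0.69 and -0.07 in naive samples. The part of neutrophils in the Asprv1 and Stfa3 values was not tested. The transglutaminases Tgm1 (0.35 ± 0.21) and Tgm3 (0.03 ± 0.08), which crosslink the envelope, did not pass.

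Of 19 measured Ly6/uPAR relatives of Slurp1 and Ly6d, 1 rose and 1 fell (unadjusted, 1 higher and 3 lower). The urokinase receptor Plaur rose by 1.02 ± 0.17 (adjusted p = 0.0191), and Gpihbp1, which carries lipoprotein lipase in capillaries, fell by 0.69 ± 0.11 (adjusted p = 0.0158). None of 7 measured nicotinic receptor subunits passed in limma (0 higher and 3 lower, unadjusted). Chrna7, a receptor subunit through which human SLURP1 acts, differed by 0.05 ± 0.08.

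The calls depended on single samples. Without naive replicates 1, 2 and 3 the number of barrier genes called was 5, 0 and 1, and without immunized replicates 1, 3, 4 and 5 it was 1, 4, 7 and 4, against 12 with all samples; without naive replicate 2 limma gave 28 lower and 6 higher at an unadjusted p under 0.05. Without immunized replicate 2 it was 16. Dsc3 passed in 7 of 8 fits that each left out 1 sample, Plaur and Gpihbp1 in 5, Krt80 in 4, Asprv1 in 3, Alox12b, Stfa3 and Trp63 in 2, Evpl, Dsg2 and Krt1 in 1 and Lelp1 in 0. Dsc3 was lost without naive replicate 2, and each of the others without naive replicate 2, without naive replicate 3 and without immunized replicate 1, among others.

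Other cell types that a disc sample could hold were followed through marker lists. Krt7, a keratin of simple epithelium, averaged -0.54 in immunized and 0.97 in naive samples and fell by 1.51 ± 0.30 (adjusted p = 0.0269). Krt19 had -0.53, 0.53, -0.87, -0.79 and -1.43 in immunized replicates 1 to 5, against 1.43, 1.29 and 1.46 in naive replicates 1 to 3, and fell by 2.01 ± 0.36 (adjusted p = 0.0214). Both calls held in 4 of the 8 fits that left out 1 sample each, and ended without any one of the naive samples or without immunized replicate 1. Krt18 (-1.30 ± 0.46) and Krt8 (-1.06 ± 0.43) did not pass.

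**Figure D4:**
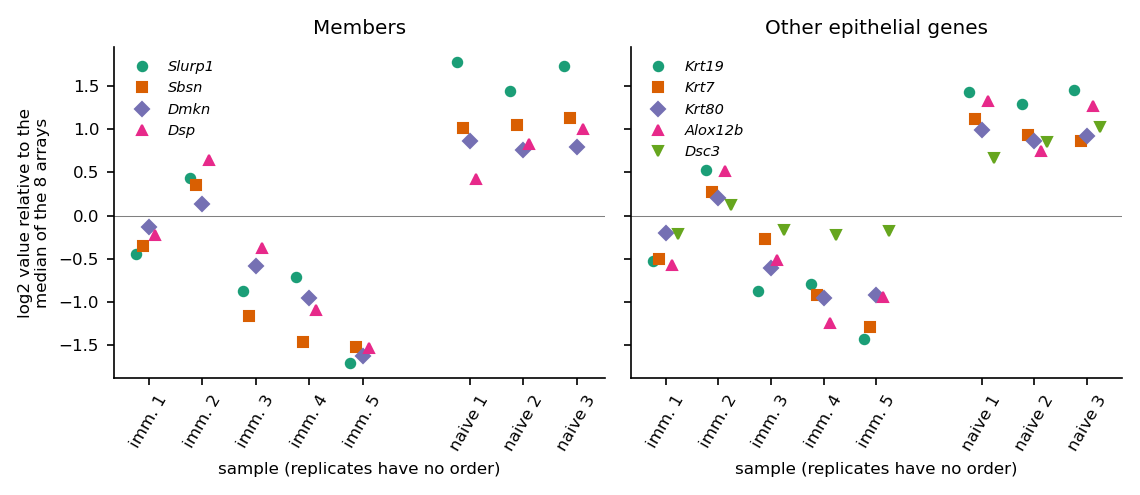
Log2 value relative to the median of the 8 arrays (y axis) in each sample (x axis; the 5 immunized samples, then the 3 naive samples) for Slurp1, Sbsn, Dmkn and Dsp on the left and for Krt19, Krt7, Krt80, Alox12b and Dsc3 on the right. In all of these genes immunized replicate 2 is the highest immunized sample. The genes on the right were not chosen by a fixed rule. Of the other barrier genes that fell, immunized replicate 2 is also highest in Evpl, Dsg2 and Krt1, but not in Gpihbp1, Lelp1 and Trp63.

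The nucleus pulposus list as a whole (10 measured markers) had 1 lower and 0 higher gene in limma (6 lower and 0 higher, unadjusted), and its mean lay between -0.69 and 0.34 in immunized and between 0.33 and 0.49 in naive samples. All 10 differences were negative, and 6 of these markers had a probe set at 8 or more in every array. Of 10 chondrocyte markers, of which 9 had a probe set at 8 or more in every array, 4 fell (Col11a2, Snorc, Sox9 and Col9a1; 9 lower and 0 higher, unadjusted), and the list mean lay between -0.87 and 0.31 in immunized and between 0.39 and 0.66 in naive samples. Of 10 simple epithelium markers 1, Krt7, fell (3 lower and 0 higher, unadjusted), with a mean between -0.53 and 0.16 in immunized and between 0.16 and 0.38 in naive samples. The part of any of these cell types in the Slurp1, Sbsn, Dmkn and Dsp values was not tested.

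Of 15 hair follicle markers Krt28 fell (-0.42 ± 0.08, from a probe set with an array below 4; over the list 4 lower and 1 higher, unadjusted), and the list mean lay between -0.08 and 0.02 in immunized and between 0.06 and 0.11 in naive samples. No melanocyte (7 measured), sebaceous and sweat gland (6) or skeletal muscle (10) marker passed in limma, and each list had 1 lower and 0 higher gene unadjusted. Of 9 mesothelial and meningeal markers Slc47a1 fell (-0.67 ± 0.16; over the list 3 lower and 0 higher, unadjusted). For the injured neuron list, fixed because such neurons express Sprr1a, Atf3 rose (1.42 ± 0.25, adjusted p = 0.0209). The other 7 genes did not pass (unadjusted, 2 higher and 1 lower of the 8). Sprr1a differed by 0.01 ± 0.07, but its probe set spanned only 0.20 over the 8 arrays. Whether Sprr1a was detected in these samples is not known. Of the marker calls, those of Krt7, Krt19 and Atf3 stood in 4 of the 8 fits that left out 1 sample, that of Krt28 in 3 and those of the chondrocyte, neutrophil and meningeal markers in 1 or 2. Each was lost without naive replicate 2, without naive replicate 3 and without immunized replicate 1.

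The genes beside the lower genes were also read. Slurp1 and Ly6d lie near each other on mouse chromosome 15. Of 12 measured genes between and beside them, taken as 5 on each side plus those between, 1 fell and 0 rose (Jrk, -0.42 ± 0.10, adjusted p = 0.0357; 4 lower, unadjusted). The Ly6/uPAR genes between them, Lypd2 (-0.38 ± 0.14) and Lynx1 (-0.46 ± 0.22), did not pass. Of the 10 measured genes beside Sbsn, Dmkn and Krtdap on chromosome 7, 0 fell and 1, the short-chain fatty acid receptor Ffar2, rose (1.13 ± 0.23, adjusted p = 0.0287). Of the 10 beside Dsp on chromosome 13, 0 fell and 3 rose (Ly86, Snrnp48 and Eef1e1). Unadjusted, 3 were higher and 2 lower, the latter Bmp6 (-0.70 ± 0.25) and Txndc5 (-0.34 ± 0.13). All genes read as neighbours were chosen after the values were seen.

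Promoters were compared because Sbsn and Dmkn, which were lower together, lie next to Krtdap, for which no difference was measurable at its low signal. The RefSeq table (build GRCm38.p6; 250 bases before to 50 after each start site) had entries for 8 of the 10 genes, all but Slurp1 and Ly6d. The motifs searched, on both strands, were TGANTCA, the AP-1 site of Fos and Jun proteins, and TATAAA, the box found near many start sites. Also searched were CACCC, bound by factors of the KLF family, and the GRHL family motif AACNGGTT. In the sequences below, shown for the 3 neighbours, for the envelope gene Ivl and for Dsp, capitals mark any match, and adjoining or overlapping matches run together. They are Sbsn (chr7:30751221-30751520, plus strand), Dmkn (chr7:30763506-30763805, plus strand, the first of its 3 entries), Krtdap (chr7:30787655-30787954, plus strand), Ivl (chr3:92573686-92573985, minus strand) and Dsp (chr13:38151044-38151343, plus strand).
Sbsn: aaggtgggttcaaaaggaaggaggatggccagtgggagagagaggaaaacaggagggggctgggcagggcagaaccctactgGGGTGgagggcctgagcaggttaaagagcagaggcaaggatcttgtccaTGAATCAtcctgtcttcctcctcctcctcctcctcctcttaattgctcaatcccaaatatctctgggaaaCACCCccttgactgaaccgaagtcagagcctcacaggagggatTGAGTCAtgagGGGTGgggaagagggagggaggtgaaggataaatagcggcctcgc
Dmkn: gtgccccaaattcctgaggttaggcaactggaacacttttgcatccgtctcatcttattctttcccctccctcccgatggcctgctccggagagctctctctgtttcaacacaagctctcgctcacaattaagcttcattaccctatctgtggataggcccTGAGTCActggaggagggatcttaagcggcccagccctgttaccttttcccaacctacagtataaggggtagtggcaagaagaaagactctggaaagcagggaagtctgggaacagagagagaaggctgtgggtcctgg
Krtdap: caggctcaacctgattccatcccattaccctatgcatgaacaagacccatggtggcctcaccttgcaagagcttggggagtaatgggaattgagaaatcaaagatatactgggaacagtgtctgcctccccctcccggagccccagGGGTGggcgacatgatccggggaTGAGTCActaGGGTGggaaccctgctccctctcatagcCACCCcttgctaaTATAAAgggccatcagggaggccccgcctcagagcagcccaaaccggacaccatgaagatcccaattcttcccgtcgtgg
Ivl: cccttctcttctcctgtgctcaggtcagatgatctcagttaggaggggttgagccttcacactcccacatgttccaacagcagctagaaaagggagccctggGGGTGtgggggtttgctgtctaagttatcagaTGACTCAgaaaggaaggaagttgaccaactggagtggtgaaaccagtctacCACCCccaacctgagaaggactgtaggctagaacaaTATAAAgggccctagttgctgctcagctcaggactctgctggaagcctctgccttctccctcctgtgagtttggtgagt
Dsp: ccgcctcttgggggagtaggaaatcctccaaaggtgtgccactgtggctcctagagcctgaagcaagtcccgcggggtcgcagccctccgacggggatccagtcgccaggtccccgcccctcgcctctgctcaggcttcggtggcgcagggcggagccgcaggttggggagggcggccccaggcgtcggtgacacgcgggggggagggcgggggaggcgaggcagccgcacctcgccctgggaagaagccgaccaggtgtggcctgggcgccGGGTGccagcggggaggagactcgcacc

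An AP-1 match was found in 7 of the 8 genes with an entry, all but Dsp, against 8.97% of the 27025 genes with a promoter in the table. In the printed sequences, counted from 1 at the 5′ end, Sbsn had 2 such matches at bases 132 to 138 and 245 to 251. Dmkn had its match at 162 to 168 and Krtdap at 170 to 176. In the cornified envelope list 14 of 45 genes with an entry (31.1%) held the motif. The genes with an AP-1 match were Sbsn and Dmkn, which were lower, and Krtdap, Lor, Flg, Ivl and Sprr1a, which were not called. Not being called does not show that a gene is unchanged. Krtdap and Flg had low signal, and the probe sets of Lor and of Ivl disagreed. A TATAAA match was found in 5 of the 8 (Krtdap, Lor, Flg, Ivl and Sprr1a), against 15.7% of all genes with a promoter in the table, and not in Sbsn, Dmkn or Dsp. The KLF motif was in 7 of the 8 genes and in 59.8% of all genes, and the GRHL motif in 0 of the 8 and 2.35% of all genes. A gene was counted if any of its entries held the motif. Dmkn held the KLF motif only in the entry at chr7:30776155-30776454, not in the printed sequence. These matches are letters in a window and not measured binding.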

How the data were processed

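Per the submitters' processing notes, the authors made the values with robust multi-array averaging (RMA) of Affymetrix arrays hybridized with biotinylated cRNA. Of the software, sources used here give no version. The deposited log2 values (the log base is that of RMA) are further centred, since every probe set has a median over the 8 arrays of 0 to within 5.0e-07. Differences between groups are unaffected, but absolute levels are lost. The spacing of the printed numbers still gave a coarse level of each probe set's lowest array, 8 or more for 31.9% of 45101 probe sets, 4 to 8 for 57.2% and below 4 for 10.9%. These classes describe a probe set's own signal and rank no gene above another. The number of arrays limits the precision, and no scan date was available.

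Of the probe sets, 34945 named 1 gene in the platform annotation and 932 several. The other 9224 named none or were control probe sets. Symbols were looked up by gene identifier in RefSeq (GRCm38.p6), which changed 0, with 162 genes unmatched. Each gene was the mean of the probe sets that name it alone. Immunized were compared with naive samples by limma (version 3.58.1, under R 4.3.3), with a linear model without covariates, moderated two-sided tests and p-values adjusted by Benjamini-Hochberg over 18193 genes (threshold 0.05). The fit was also run on simulated data, with genes drawn independently and with the same spread in both groups. These data differ from that setting: Sbsn had an SD of 0.81 in immunized and 0.06 in naive samples. The simulation therefore does not show how reliable the calls are here. P-values set the difference between the groups against the spread between these samples, moderated over all genes. Which variation between animals that spread covers is unclear, because the descriptions of immunized replicate 1 and naive replicate 3 join sample numbers. The 10 genes, and the lists of barrier genes and markers, were chosen with earlier results of these data known, and no list was given a test of its own.

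Besides the 10 genes, the text names the genes of largest moderated t in each list (up to 4), the 8 genes most like Slurp1 and, chosen after their values were seen, further list members and neighbouring genes. Alternatives were quantile normalization, median centring, probe set filters, a median summary, other variance models, array weights, a block for replicate number, another threshold and omission of samples; probe sets of the highest level class and omission of the samples that stood apart were added after the data were seen. Figures were drawn with matplotlib 3.10.9.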

Additional observations from a re-analysis of the deposited data

Results flagged for a closer look

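In 92 named genes the immunized samples were searched for a value whose gap to the nearest other exceeded 0.710 of the group's range, which chance gives in about 1 in 20 groups, and 3 were found. Dsc3 in immunized replicate 2 was 0.12, against -0.23 to -0.17 in the other immunized samples. Zfp750, an epidermal transcription factor, was 0.15 in immunized replicate 3, against -0.15 to -0.07 in the others. The hair follicle keratin Krt27 was 0.02 in immunized replicate 3, against -0.03 to -0.02 in the others. None of the 10 genes of the set was among the 3.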

How the results depend on the processing

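Slurp1, Sbsn, Dmkn and Dsp stayed lower in immunized samples in all 19 alternatives that gave a difference, at -2.71 to -1.83 for Slurp1, -2.19 to -1.45 for Sbsn, -1.63 to -1.0 for Dmkn and -1.56 to -0.74 for Dsp. The smallest of these for Sbsn, Dmkn and Dsp came with the replicate block. The calls did not stay. With 1 sample left out at a time, 21 to 3003 genes were called over all genes (1663 with all samples), 0 to 4 of the 10 genes (3) and 0 to 16 barrier genes (12). Each single naive sample, or immunized replicate 1, ended every call among the 10 genes when left out. Without both samples whose descriptions join sample numbers, limma called 0 genes over all genes, 0 of the 10 and 0 barrier genes (1621 higher and 2173 lower over all genes at an unadjusted p under 0.05). With the replicate block it called 7, 0 and 0. The labels do not say whether a shared number pairs samples. Same-numbered samples had correlations of deviations from the group means of -0.05, 0.24 and -0.10, which are too few pairs to decide it. The cause of the lost calls was not tested. Without naive replicate 1 and immunized replicates 3 and 5, the arrays that spread most, an alternative added after the data were seen, 218, 0 and 3 were called. Quantile normalization gave 898 over all genes (521 higher and 377 lower, against 812 and 851) and 6 barrier genes, array weights 5900 and 33, and an adjusted p under 0.10 gave 3783 and 24. Mc5r, a sebaceous gland marker, was -0.15, and 0.03 with array weights. Krtdap and Flg could not be given when probe sets with an array below 4 were omitted. Among the other named genes 1232 values kept side and direction, 277 lost the call, 41 gained it and 1 turned. Signal near the floor limits Krtdap, Flg and 25 of the 140 barrier genes, of which 0 were called.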
